A study of Mus musculus with 4 samples.

Results

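Gadd45a, Gadd45b and Gadd45g encode small acidic stress proteins of 1 family, and Gadd45gip1 encodes a protein that binds them. The 4 genes, of 18193 named on the arrays, were taken by symbol from the platform annotation, which gave 7 of the 45101 deposited probe sets, 1 each for Gadd45a and Gadd45g, 3 for Gadd45b and 2 for Gadd45gip1. The family was chosen by the lower Gadd45g signal already seen in treated cells, so the treated and untreated values of Gadd45g are described here without a test. The other 3 genes were taken by name. RNA came from mouse embryonic stem cells of the E14Tg2A.4 subline, which derives from E14Tg2a, a line that lacks Hprt. Cells of 2 samples received BMP-2 (bone morphogenetic protein 2), a growth factor that acts through receptors and SMAD transcription factors, at 25 ng/ml for 1 h. Cells of 2 samples were untreated controls. Each sample was hybridised to 1 one-colour Affymetrix array, whose MAS5 signal per probe set is the unit used below. Nothing in the labels places the samples of a group in separate cultures, so the spread behind each error and p-value may be technical.

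GADD45 proteins have no known enzymatic activity and act by binding other proteins. They activate the kinase MAP3K4 upstream of p38 and JNK, bind the cyclin-dependent kinase CDK1, the cell cycle inhibitor p21 and the replication clamp PCNA, and recruit base excision repair to methylated DNA. Their transcripts are short-lived and are known to respond quickly to DNA damage, cytokines and growth factors, and Gadd45b is known as an early gene of transforming growth factor beta signalling. Gadd45gip1, also called Crif1, is a component of the large subunit of the mitochondrial ribosome.

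The promoters of the 3 paralogues are shown so that the regulatory sequence beside Gadd45g can be read against that of its relatives. Each window is RefSeq sequence of build GRCm38.p6, written 5′ to 3′ on the strand of the gene, and covers 250 bases before the annotated start and 50 after it. The promoter table matched 3 of the 4 genes, and Gadd45gip1 is named only. The windows lie at chr13:51846425-51846724 on the plus strand for Gadd45g, at chr6:67037358-67037657 on the minus strand for Gadd45a and at chr10:80929841-80930140 on the plus strand for Gadd45b. Capitals mark every match to the E box CANNTG, the site that basic helix-loop-helix factors bind.
Gadd45g: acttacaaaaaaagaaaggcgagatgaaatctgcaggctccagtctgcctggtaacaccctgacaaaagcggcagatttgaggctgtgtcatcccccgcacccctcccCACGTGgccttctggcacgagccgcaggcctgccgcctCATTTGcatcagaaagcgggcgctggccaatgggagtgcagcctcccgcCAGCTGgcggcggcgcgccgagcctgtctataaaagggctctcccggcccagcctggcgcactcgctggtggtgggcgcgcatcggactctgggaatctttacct
Gadd45a: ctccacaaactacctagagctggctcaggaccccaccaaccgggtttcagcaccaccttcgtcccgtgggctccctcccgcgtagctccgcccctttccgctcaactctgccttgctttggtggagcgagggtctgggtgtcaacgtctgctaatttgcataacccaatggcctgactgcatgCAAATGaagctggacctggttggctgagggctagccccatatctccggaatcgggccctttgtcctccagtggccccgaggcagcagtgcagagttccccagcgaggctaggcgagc
Gadd45b: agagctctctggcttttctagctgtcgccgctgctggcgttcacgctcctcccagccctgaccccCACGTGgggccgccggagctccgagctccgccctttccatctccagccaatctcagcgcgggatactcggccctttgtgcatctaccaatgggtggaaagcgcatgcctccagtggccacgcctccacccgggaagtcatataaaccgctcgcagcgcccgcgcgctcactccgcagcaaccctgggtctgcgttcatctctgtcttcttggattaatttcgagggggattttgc

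The E box CANNTG, which reads the same on both strands, occurred 3 times in the Gadd45g window, with first bases 142, 104 and 55 bases before the start, and once each in the Gadd45a window (67 bases before) and the Gadd45b window (185 bases before). The first Gadd45g match and the Gadd45b match were of the form CACGTG, a subset of CANNTG. Of 32851 mouse promoter windows of the same length, 72.3% held CANNTG and 7.15% held CACGTG. The SMAD box CAGAC, searched on both strands, occurred 2 times in the Gadd45a window and once each in the other 2 windows, and 49.6% of all windows held it. The GC-rich letters GGCGCC, bound by SMAD1 and SMAD5, were in none of the 3 windows and in 11.9% of all windows. TATAAA, searched on both strands, lay 27 bases before the start of Gadd45g and 46 bases before that of Gadd45b, was not found in the Gadd45a window, and was held by 13.6% of all windows. CCAAT, also searched on both strands, was in all 3 windows and in 37.4% of all windows. The 3 windows were rich in G and C, at 62.3% for Gadd45g, 61.0% for Gadd45a and 62.0% for Gadd45b, against a median of 52.7% over all windows. They held 21, 14 and 24 CpG dinucleotides in that order, against a median of 7. A match describes letters and shows no binding.

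Facts of the whole series bear on these values as follows. Median signals were 81.8 and 94.9 on the treated arrays and 82.5 and 94.6 on the untreated arrays, and precision is limited by having 4 arrays. The stem cell label was borne out by its markers, since 10 of 10 were measured and Pou5f1 read 11210 and 10714 on the treated arrays against 10891 and 10293 on the untreated arrays. The summed signal of these markers was 100827 to 106408 on treated and 101282 to 107443 on untreated arrays. Of 10 fibroblast markers only Thy1 and Col1a2 were above the lower signal limit of 53 that was set for testing, and their sum was 381 to 422 on treated and 400 to 429 on untreated arrays. Of 8 neural progenitor markers Tubb3, Pax6 and Nes were above it, with a sum of 1818 to 1831 on treated and 1764 to 2258 on untreated arrays, while Sox1, Neurog1, Neurog2 and Dcx were among those that were not. In these bulk samples, fewer cells of a type and less RNA per cell cannot be told apart. Control probe sets for 18S ribosomal RNA were 3.94 to 6.11 times brighter on untreated replicate 2 than on the brightest of the other arrays.

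The comparison of treated with untreated cells by limma took in the 27022 probe sets above the limit, and all 7 probe sets of the family were among them. By limma with Benjamini-Hochberg adjustment, 5 of the 27022 were past the 0.05 threshold (0.0185%), and each was higher with BMP-2. They belong to Id1, Id2 (2 probe sets) and Id3, known early BMP targets that encode inhibitors of basic helix-loop-helix factors, and to Pom121. Without the intensity trend in the model of the spread the count was 0 (1023 at an unadjusted p under 0.05). It was 93 and 141 without treated replicates 1 and 2, and 38 and 16 without untreated replicates 1 and 2.

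Gadd45g is needed in mouse embryos for p38 signalling in the developing testis and is expressed in differentiating neural precursors. It gave a lower signal in treated cells, the trait it was chosen for, and was not among the probe sets past the threshold. Its probe set, 1453851_a_at, read 296 and 290 in the treated cells (replicates 1 and 2) against 542 and 594 in the untreated cells (replicates 1 and 2). Both treated arrays lay well below both untreated arrays, and the gap between the groups was wider than the gap between arrays of either group. The mean was 293 ± 3.72 in treated cells and 568 ± 36.9 in untreated cells (SD, n = 2 each). The treated signal was thus 51.7% of the untreated one, a log2 difference of -0.95 (SE 0.14).

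The single arrays behind the Gadd45g difference are given as a description. Across the 4 pairs of a treated with an untreated array it ran from -1.03 to -0.87 log2, while the arrays differed by 0.03 log2 within the treated group and by 0.13 log2 within the untreated group. Leaving out 1 array at a time gave -1.02 to -0.89 log2. The difference was -0.89 log2 without untreated replicate 2, the array with the high 18S control signal. Normalization by quantiles gave -0.98 log2, centring each array on its median -0.95 log2 and a pseudocount of 25.4 gave -0.90 log2. The lowest Gadd45g signal was 5.48 times the lower signal limit, so the difference was read well above it.

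**Figure D1:**
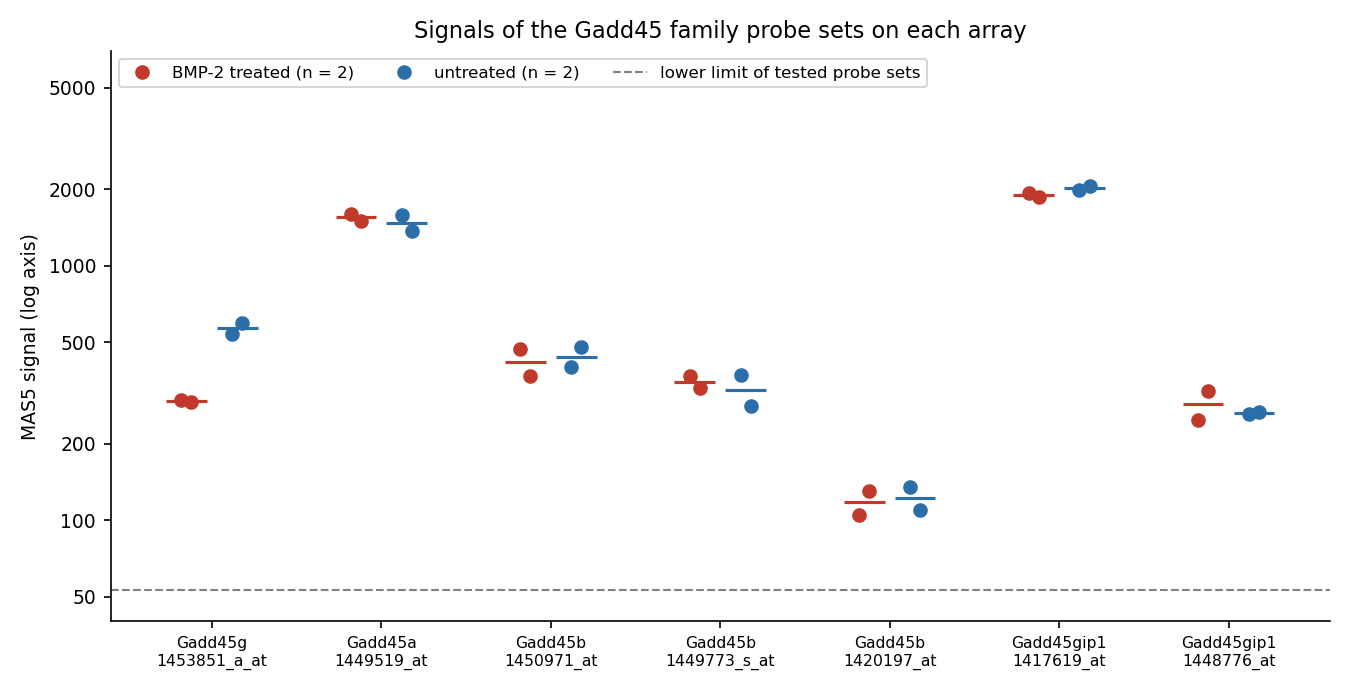
MAS5 signal on a log axis for the 7 probe sets of the family, with 1 point per array (BMP-2 treated left, untreated right, n = 2 each), a bar at the mean of each group and a dashed line at the lower limit of tested probe sets (53). The treated Gadd45g signals (296 and 290) lie below the untreated ones (542 and 594), while treated and untreated points lie close together for the other 6 probe sets.

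Among all probe sets tested, a signal lower than the untreated arrays on both treated arrays was common, at 3380 of 27022 (12.5%), and a signal lower by at least 0.58 log2 (1.5-fold) in addition was seen for 350 (1.3%). A difference at or below that of Gadd45g was seen for 139 (0.514%). Of these, 138 were dimmer than Gadd45g. Among the 3886 probe sets whose mean log2 signal lay within 0.5 of that of Gadd45g, only 2 differed by as much downwards, Gadd45g itself and 1447124_at, which names no gene and whose groups overlapped. The SD of the log2 difference over these 3886 was 0.16. As Gadd45g was chosen for its difference, these places are descriptions and no test.

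**Figure D2:**
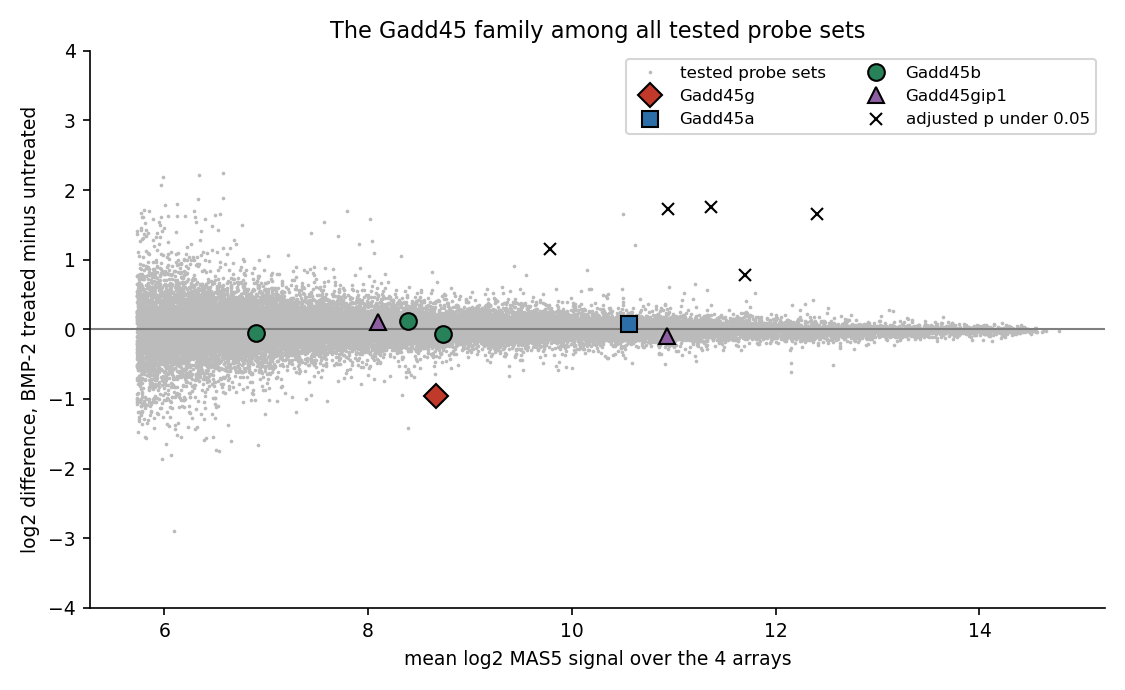
Log2 difference (BMP-2 treated minus untreated) against the mean log2 MAS5 signal over the 4 arrays for the 27022 tested probe sets (grey), with the family in colour and the 5 probe sets past an adjusted p of 0.05 as crosses. Gadd45g, at -0.95, lies near the lower edge of the probe sets of like signal, of which 1 other is as low, and the other members lie near 0.

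Gadd45a, the founding member of the family and a p53 target known for its part in active DNA demethylation, did not give a lower signal with BMP-2. It read 1603 and 1504 on the treated arrays and 1586 and 1366 on the untreated arrays. The groups overlapped, with untreated replicate 2 the lowest of the 4 arrays. The mean was 1554 ± 70.1 in treated and 1476 ± 155 in untreated cells (SD, n = 2 each), a log2 difference of 0.08 with a 95% interval of -0.16 to 0.32 (limma adjusted p = 1.00). In percent, the treated signal was 106% of the untreated one, with an interval of 89.3% to 125%. Without untreated replicate 2 the difference took the opposite sign, at -0.03 log2.

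Gadd45b had 3 probe sets, none of which passed. The brightest, 1450971_at, read 469 and 370 on the treated arrays and 400 and 477 on the untreated arrays, a log2 difference of -0.07 (95% interval -0.44 to 0.30). Here the groups overlapped, since the highest treated array was above 1 untreated array and the lowest was below both. The second, 1449773_s_at, read 369 and 330 on the treated arrays and 371 and 280 on the untreated arrays, a log2 difference of 0.11 (-0.29 to 0.51). The suffix _s_at is Affymetrix's mark for probes that can match transcripts of more than 1 gene. For this probe set and for the dimmest one the annotation gives no accession. The dimmest, 1420197_at, read 105 and 130 on the treated arrays and 135 and 109 on the untreated arrays, a log2 difference of -0.06 (-0.64 to 0.52), and its lowest signal was 1.98 times the limit. Limma gave an adjusted p of 1.00 for all 3. Their signs disagreed, and each took the opposite sign when some array was left out. Without untreated replicate 2 and without treated replicate 2 the brightest gave 0.06 and 0.10 log2. The second gave -0.09 log2 without untreated replicate 2, and the dimmest 0.09 and 0.10 log2 without treated replicate 1 and without untreated replicate 1.

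Gadd45gip1, the mitochondrial ribosome component that binds GADD45 proteins, was close to even between the groups on both of its probe sets, which the annotation assigns to the same accession. The brighter, 1417619_at, read 1932 and 1860 on the treated arrays and 1985 and 2060 on the untreated arrays. Both treated arrays were lower here, without overlap, by a small amount. The mean was 1896 ± 51.4 in treated and 2022 ± 52.8 in untreated cells (SD, n = 2 each), a log2 difference of -0.09 with a 95% interval of -0.29 to 0.11 (limma adjusted p = 1.00). The dimmer, 1448776_at, read 248 and 323 on the treated arrays and 260 and 266 on the untreated arrays, a log2 difference of 0.11 (-0.30 to 0.52, limma adjusted p = 1.00). In this case the 2 treated arrays lay on either side of the untreated ones. Its difference was -0.08 log2 without treated replicate 2, and the mean of the 2 probe sets was 0.0067 log2.

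**Figure D3:**
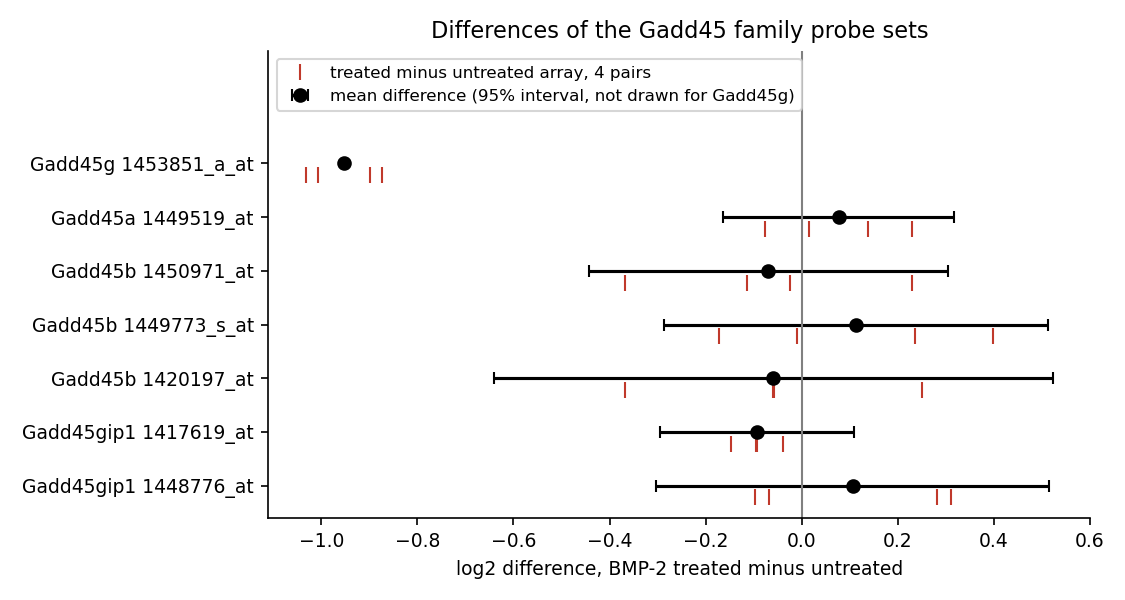
Log2 difference (BMP-2 treated minus untreated) of each probe set, with black points for the difference of the means, bars for 95% intervals (not drawn for Gadd45g, which was chosen for its difference) and red ticks for the 4 single pairs of a treated and an untreated array. The Gadd45g ticks run from -1.03 to -0.87, and no tick of another probe set lies below -0.37.

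Set side by side, 6 probe sets of the other 3 genes differed by -0.09 to 0.11 log2, 3 of them higher and 3 lower, with SEs of 0.09 to 0.26. Over these 6, 0 passed by limma (0 also at an unadjusted p under 0.05, the lowest being 0.327, where 3.07% of all tested probe sets were under 0.05), and 1 had groups that did not overlap, where 28.4% of all tested probe sets had such groups. Every one of the 6 intervals had its lower bound above the Gadd45g difference of -0.95 log2, and the lowest bound was -0.64, on the dimmest Gadd45b probe set. These bounds are set beside the single Gadd45g value, which has its own error and was chosen for being low. They do not exclude a shared drop of smaller size, and smaller changes in either direction lie within the intervals. The contrast between Gadd45g and the other genes was not tested, because Gadd45g was chosen for its low value. The median over the 7 probe sets was -0.06 log2, against 0.0076 over all tested probe sets. It includes Gadd45g, chosen for its low value, and so does not describe a shift shared by the family.

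The genes whose signals over the 4 arrays lay nearest to those of Gadd45g were found by the root mean square difference between log2 signals, each gene centred on its own mean, among 12975 other genes. The 5 nearest were Pf4, a platelet chemokine (0.05 log2), Fbxl7, an F-box protein (0.08), Plch2, a phospholipase C (0.09), Morrbid, a long noncoding RNA (0.09), and Smc1b, a cohesin subunit of meiosis (0.10). All 5 were dim. Pf4 read 45.7 and 47.2 on the treated arrays and 88.7 and 102 on the untreated arrays, and Morrbid read 70.3 and 73.1 on the treated arrays and 116 and 132 on the untreated arrays. On at least 1 treated array, 4 of the 5 were below the lower signal limit, all but Morrbid, and none passed by limma (adjusted p = 1.00 for each). Of the other members of the family, Gadd45gip1 stood at place 1921 (0.43 log2), Gadd45b at 3357 (0.46) and Gadd45a at 8648 (0.53). These distances follow from their differences near 0 given above and are no further evidence. Dll1, a Notch ligand, stood at place 16 (0.16 log2), which restates its own difference given below. As Gadd45g was chosen for its low value, the places of Dll1 and of the 5 nearest genes are descriptions and no evidence.

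**Figure D4:**
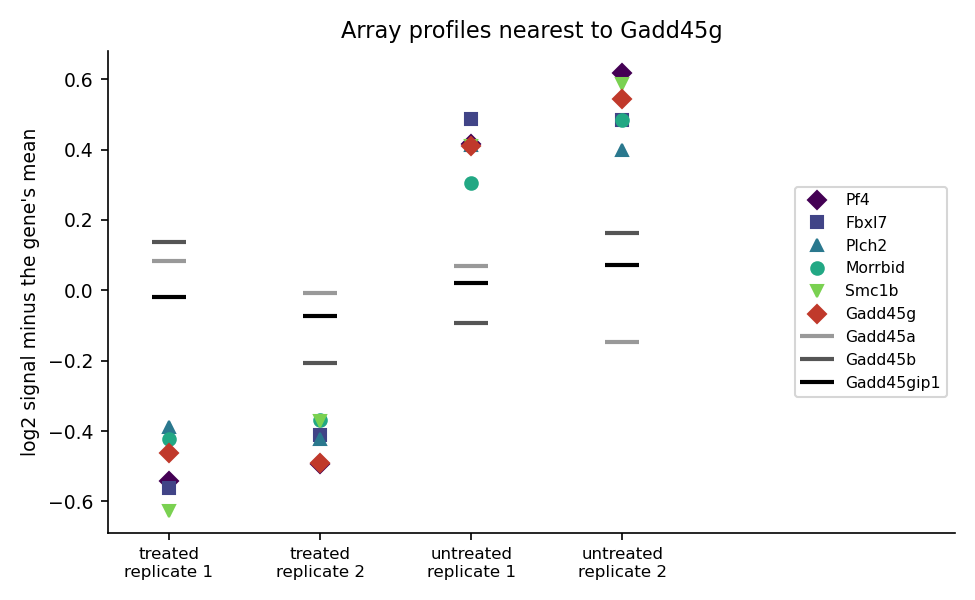
Log2 signal on each array minus the mean of the gene over the 4 arrays, for Gadd45g, the 5 genes nearest to it and the 3 other members (dashes, brightest probe set of each). Gadd45g and its 5 nearest genes lie low on both treated arrays and high on both untreated arrays, while the other members stay within 0.21 of their own mean.

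Genes linked to the family were followed in 6 lists written from general knowledge, each gene by its brightest probe set. For comparison, 4 of the 12976 genes tested rose by limma on that probe set (0.0308%) and none fell, 6875 were higher, 28.8% had groups that did not overlap and the median log2 difference was 0.0089. Values below are log2 differences, and limma gave an adjusted p of 1.00 unless another is printed. Genes that were not among the 3 brightest of a list, or at least 0.58 log2 apart without overlap, were named after their values were seen.

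Genes whose products bind GADD45 proteins or act with them differed little. Of 20, 16 were measured, 8 were higher and 8 lower, and 0 passed. The brightest were Npm1, a nucleolar chaperone, at -0.03 (SE 0.07), Eef1a1, the translation elongation factor, at 0.0011 (SE 0.06), and Pcna at -0.02 (SE 0.07). Cdk1, the mitotic kinase, differed by -0.06 (SE 0.08), Cdkn1a, which encodes p21, by 0.0014 (SE 0.11) and Map3k4 by -0.03 (SE 0.15). Mbd4, a glycosylase that removes deaminated methylcytosine, was highest at 0.40 (SE 0.18). It read 325 and 397 on the treated arrays and 248 and 301 on the untreated arrays. This is its brightest probe set only, and the values of its 2 other tested probe sets are not given here. The median of the list was -0.0070, and the groups of 4 of the 16 did not overlap (25.0%).

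Target genes of p53, the regulator through which DNA damage acts on Gadd45a, were likewise near even. Of 22, 20 were measured, 7 were higher and 13 lower, and 0 passed, with a median of -0.04 and a range of -0.23 to 0.12. Trp53inp1, Ccng1 and Mdm2, the brightest, differed by 0.06 (SE 0.07), -0.0019 (SE 0.07) and -0.02 (SE 0.08). The groups of 5 of the 20 did not overlap (25.0%). Stress genes of the integrated and unfolded protein responses gave 7 higher and 10 lower of 17 measured out of 18, with 0 past the threshold and a median of -0.0057, and the groups of 5 of the 17 did not overlap (29.4%). Hspa5, a chaperone of the endoplasmic reticulum, differed by -0.0029 (SE 0.10), Asns, asparagine synthetase, by 0.09 (SE 0.07) and the transcription factor Atf4 by -0.04 (SE 0.08). A pair of stress genes outside the family whose older names also carry Gadd gave intervals across 0. Ddit3 (Gadd153) read 269 and 240 on the treated arrays and 158 and 286 on the untreated arrays, a difference of 0.26 (95% interval -0.32 to 0.84). Ppp1r15a (Gadd34) read 1130 and 1040 on the treated arrays and 1090 and 1246 on the untreated arrays, a difference of -0.10 (-0.36 to 0.15).

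Early genes of NF-kappaB and cytokine signalling, which is known to induce Gadd45b, gave 8 higher and 6 lower of 14 measured out of 18, with 0 past the threshold and a median of 0.03. Irf1, an interferon-responsive transcription factor, read 1841 and 1898 on the treated arrays and 1398 and 1572 on the untreated arrays. Its treated arrays were above both untreated ones, by 0.33 (SE 0.10). Nfkbia, the NF-kappaB inhibitor, differed by 0.19 (SE 0.09) and Myc by -0.06 (SE 0.10). The other tested probe sets of Nfkbia gave -0.01 to 0.41. The groups of 7 of the 14 did not overlap (50%, against 28.8% of all genes tested).

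Proneural and Notch-ligand genes, with which Gadd45g is known to be expressed in neural precursors of frog and mouse embryos, gave 6 higher and 8 lower of 14 measured out of 23, with 0 past the threshold and a median of -0.03. The groups of 6 of the 14 did not overlap (42.9%, against 28.8% of all genes tested). Dll1 was the 1 gene of any of the 6 lists at least 0.58 log2 apart without overlap, as were 2.31% of all genes tested. The lists held 16, 20, 17, 14, 14 and 47 measured genes, so the share over the lists together was below 2.31%. Dll1 read 503 and 559 on the treated arrays and 815 and 869 on the untreated arrays. Both treated arrays were thus lower (a log2 difference of -0.67, SE 0.12, limma adjusted p = 0.433). Dll1 passed without treated replicate 2 (adjusted p = 0.0261) and in no other setting (0.0261 to 1.00 over all settings). Neurod1, a neuronal transcription factor, differed by -0.29 (SE 0.10), with 1361 and 1303 on the treated arrays and 1731 and 1532 on the untreated arrays. Sox4 differed by -0.05 (SE 0.10) and Tubb3, a neuronal tubulin, by -0.20 (SE 0.13). The other tested probe sets of Sox4 gave -0.33 to 0.13. Neurog1 and Neurog2, proneural factors known beside Gadd45g, were below the limit and were not tested. The neural progenitor sums given above overlapped between the groups, and their part in the Gadd45g and Dll1 values was not tested.

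Genes of the large subunit of the mitochondrial ribosome, the complex that holds the Gadd45gip1 product, gave 15 higher and 32 lower of 47 measured out of 47, with 0 past the threshold, a median of -0.03 and a range of -0.25 to 0.14. Mrpl15, Mrpl51 and Mrpl17, the brightest, differed by 0.05 (SE 0.08), -0.04 (SE 0.08) and -0.17 (SE 0.09). The Gadd45gip1 difference of -0.09 on its brighter probe set lay inside the range of this list. The groups of 10 of the 47 did not overlap (21.3%).

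**Figure D5:**
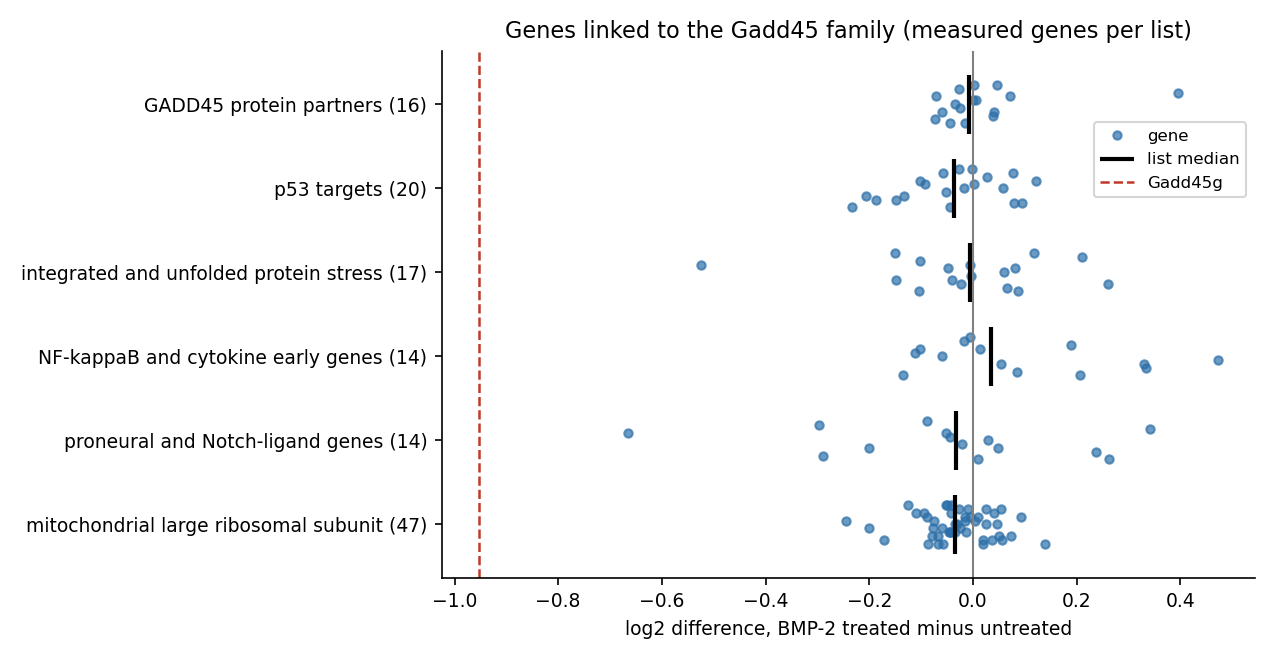
Log2 difference (BMP-2 treated minus untreated) of each measured gene in the 6 lists, with 1 point per gene on its brightest probe set, a black bar at the list median and a dashed line at Gadd45g (-0.95). The medians lie between -0.04 and 0.03, and Dll1, at -0.67 in the proneural and Notch-ligand list, is the point nearest to the Gadd45g line.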

How the data were processed

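The authors computed the intensity of each probe set, on a linear scale, with MAS5, per the submitters' processing notes. The version and settings are not given in the sources used here. Their 2%-trimmed mean was 500.0 on each array, so a scaling within arrays was read from the values. Samples were grouped by their titles. Log2 signals were used with no pseudocount, and with no further normalization since the array medians lay within 0.21 log2 of one another. The 64 control probe sets were set aside, and probe sets with a mean log2 signal above the 40th percentile (5.73 log2, a signal of 53) were kept. Detection calls were not used here.

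The comparison of the groups used limma 3.58.1 (R 4.3.3, lmFit, eBayes with a trend on signal, 2 residual and 7.98 prior degrees of freedom), two-sided, over all 27022 kept probe sets. Intervals are at 95%. A permutation of 2 against 2 arrays cannot give a p under 0.333, and none was run. Limma was also run 5 times on simulated data, each of 27022 probe sets of which 200 differed. It found 47.6% of differences of 1 log2 and 12.0% of those of 0.5 log2, with false calls at 4.22%. The simulated errors were independent, with spreads drawn from limma's own fit, so these rates hold only as far as that model does.

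A gene of a list stands for its kept probe set of highest mean signal that names it alone. The updating of symbols through Entrez identifiers changed 0 of them. The genes named by rule are all members, the 5 genes nearest to Gadd45g, the 3 brightest genes of each list and those past the threshold or at least 0.58 log2 apart without overlap. Other list genes, such as Cdk1, Cdkn1a, Map3k4, Mbd4, Ddit3 and Ppp1r15a, were named after their values were seen. The members and lists were chosen with earlier results of these data known. The alternatives were 2 normalizations, a pseudocount, 2 filters, no trend, a replicate block, leaving out each array and, for members with several probe sets, their mean.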

Additional observations from a re-analysis of the deposited data

How the results depend on the processing

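The Gadd45g difference ran from -1.02 to -0.89 log2 over the 11 alternatives, of which the filters, the trend and the replicate block leave it unchanged by construction. Gadd45a, Gadd45b and Gadd45gip1 passed in no alternative, and some of their differences near 0 changed sign. With 1 array left out, log2 differences ran from -0.030 to 0.18 for Gadd45a, from -0.24 to 0.10, -0.091 to 0.32 and -0.21 to 0.10 for the Gadd45b probe sets from brightest to dimmest, and from -0.12 to -0.07 and -0.082 to 0.30 for the brighter and the dimmer Gadd45gip1 probe set. The mean of the Gadd45gip1 probe sets was 0.0067 log2. Gadd45a and Gadd45g have 1 probe set each, so that setting does not apply to them. Without 1 array the list medians ran from -0.019 to 0.025 log2 for the GADD45 partners, -0.044 to 0.066 for the stress genes, -0.070 to 0.016 for the mitochondrial ribosome, -0.048 to 0.0042 for the proneural list, 0.026 to 0.094 for the NF-kappaB list and -0.042 to -0.017 for the p53 targets. The number of probe sets past the threshold, 5, was 116 after centring on the median, 8 with the filter at the 60th percentile, 0 without the intensity trend (1023 at an unadjusted p under 0.05), and 16 to 141 without 1 array. In the fits after centring and without either treated array limma's prior degrees of freedom were infinite, and whether this raised the counts was not tested. With the replicate number as a block 11 passed. Same-numbered arrays deviated together from their group means (r = 0.15 over kept probe sets). Median signals also went by replicate number. They were 81.8 (treated) and 82.5 (untreated) for replicate 1, and 94.9 (treated) and 94.6 (untreated) for replicate 2. However, 2 shared numbers do not show pairing. The count of called genes per list was 0 in every alternative except the proneural and Notch-ligand list, where it was 0 to 1 without 1 array.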

Other observations

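A few values of linked genes that belong in no comparison above were picked after they were seen. The probe set 1447124_at, of like signal to Gadd45g and without a gene name, read 83.2 and 507 on the treated arrays and 316 and 948 on the untreated arrays, so it differed more between arrays of 1 group than between the groups. Mrpl17 gave -0.17 log2 on its brightest probe set, while its probe set 1458027_at read 98.5 and 111 on the treated arrays and 31.1 and 43.5 on the untreated arrays (1.5 log2, limma adjusted p = 1.00). Both untreated signals of 1458027_at were below the lower signal limit of 53. It was kept for testing only through its treated signals, so its difference is no evidence on Mrpl17.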
